A study of Mus musculus with 6 samples.

Results

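The genes of the cytosolic ribosomal proteins, the proteins that build the large and the small subunit of the ribosome in the cytoplasm, were followed in the livers of mice on a steatohepatitis diet with and without added glutaredoxin-1 (Glrx). They were taken by symbol: Rpl or Rps with a number and at most an a or x after it, together with Rpsa, Rplp0, Rplp1 and Rplp2. Kinases and pseudogenes were left out. The table held 56 such genes among 27381, 35 of the large and 21 of the small subunit. RefSeq (GRCm38.p6) lists 76 mouse genes whose names fit, and the other 20 were not analysed here.

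Male wild-type C57BL/6J mice, 10 weeks old at the start, were kept for 32 weeks on a high-fat high-fructose diet with 40% of calories from fat (palm oil), 20% from fructose and 2% cholesterol. At week 20 each mouse received 1e+12 vector genomes of an adeno-associated virus by intraperitoneal injection, and the liver was taken 12 weeks later. AAV-Glrx (AAV-Hep-Glrx in the study) carried mouse Glrx with an HA/FLAG tag and a viral RNA element (WPRE) behind the promoter of thyroxine-binding globulin (TBG, Serpina7), which is active in hepatocytes. AAV control (AAV-Hep-control) carried the TBG plasmid with no insert, so diet, injection and promoter were common to both groups and a control with the tag or the viral element alone was not part of it. RNA of whole livers (5 or 6 mice in a group) was combined into 3 pools for each vector, with an Affymetrix Mouse Gene 2.0 ST array per pool. The sources used here do not say how the mice were divided among pools, so the spread between arrays is that between pools and not between mice.

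All values are log2 expression per gene after the Robust Multiarray Average, which corrects background, makes the probe intensities of all arrays alike and sums the probes of a gene. They say how a gene differs between arrays. Because each gene has its own probes, a level is not an abundance and the levels of 2 genes cannot be set against each other as amounts of RNA. The arrays correlated at 0.987 to 0.991, and no pair held duplicate values. Glrx itself read 6.11, 6.03 and 5.66 in AAV control 1, 2 and 3 and 6.60, 7.77 and 7.24 in AAV-Glrx 1, 2 and 3, a log2 difference of 1.27 ± 0.27 (SE) that ran with the labels and had an adjusted p of 0.847 (limma). Hepatocyte markers were bright (median level 11.0 over 11 of 12 listed genes) in these whole-liver samples.

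The ribosome is made in the nucleolus, where RNA polymerase I transcribes the rRNA precursor and a large set of assembly factors trims and folds it while ribosomal proteins bind. The proteins are needed in fixed proportions, and their mRNAs are among the most plentiful in most cells. These mRNAs start with a run of pyrimidines, the 5′ terminal oligopyrimidine (TOP) motif, through which the kinase complex mTORC1 and the RNA-binding protein Larp1 set how strongly they are translated. Arrays measure the RNA and say nothing about that translation. Each of these genes also has many processed pseudogenes in the genome, whose sequence is close to that of the mRNA, so that probes can be shared.

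The TOP start is the sequence feature that these genes share, and the 8 genes whose annotated start has it are shown here because they include the 2 small-subunit genes Rps15a and Rps21 described below. RefSeq promoters were matched for 44 of the 56 genes (26 large, 18 small; 8 of them with several starts). A start was counted when the first transcribed base was C and began a run of at least 5 pyrimidines. This was so for 8 of 44 genes (18.2%) against 813 of 27025 genes with a promoter (3.01%), and for 5 of 26 large-subunit (19.2%) and 3 of 18 small-subunit genes (16.7%). Each line gives 10 bases before and 20 bases from the annotated start, 5′ to 3′ on the strand of the gene (RefSeq, GRCm38.p6), and the capitals mark the pyrimidine run.
Rps15a (chr7:118116128-118116157, minus strand): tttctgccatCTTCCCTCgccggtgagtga
Rps21 (chr2:180257369-180257398, plus strand): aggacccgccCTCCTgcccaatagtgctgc
Rps27 (chr3:90213629-90213658, minus strand): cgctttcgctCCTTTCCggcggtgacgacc
Rpl14 (chr9:120571507-120571536, plus strand): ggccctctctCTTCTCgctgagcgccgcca
Rpl15 (chr14:18270967-18270996, minus strand): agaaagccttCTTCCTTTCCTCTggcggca
Rpl28 (chr7:4792955-4792984, plus strand): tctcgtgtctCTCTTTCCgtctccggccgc
Rpl35a (chr16:33056472-33056501, plus strand): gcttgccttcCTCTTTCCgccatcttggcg
Rpl38 (chr11:114668570-114668599, plus strand): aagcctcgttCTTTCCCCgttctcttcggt
The run had 5 bases in Rps21 and 13 in Rpl15, with the others at 6 to 8. A start annotated a few bases away from the C is missed by this count, so it describes the annotation and not the mRNAs.

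In AAV-Glrx, none of the 56 genes passed the test across all genes (limma, Benjamini-Hochberg adjusted p under 0.1), in which 1 of 27381 genes passed (0.00365%). That gene was Zbtb16, a zinc finger transcription factor, at -2.12 with an adjusted p of 0.0896. The smallest adjusted p of a ribosomal protein gene was 0.847. At an unadjusted p under 0.05, 7 of the 56 were lower in AAV-Glrx, against 3.01% of all genes, and 1 was higher, against 2.76% of all genes. In 8 genes every AAV-Glrx array read below every AAV control array (5.38% of all genes), and in 2 every AAV-Glrx array read above (5.51% of all genes). The mean was lower in 33 of 56 genes, against 50.5% of all genes, and the median log2 fold change was -0.07 against -0.00122 over all genes. The ribosomal protein genes also varied more between pools of 1 group, with a median residual SD of 0.247 against 0.139 over all genes, and their median absolute log2 fold change was 0.155 against 0.0888.

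Of the 7 genes lower at an unadjusted p under 0.05, 5 belonged to the small subunit. Of its 21 genes, 15 had a lower mean in AAV-Glrx and none was higher at that p (limma). The median log2 fold change was -0.12, with single genes from -0.81 to 0.14. Of the 35 large-subunit genes, 18 had a lower mean, 2 were lower and 1 was higher at that p, and the median was -0.01 over a wider range from -0.64 to 0.86. The difference between the subunits was not tested. With an array left out, the small-subunit median ran from -0.19 (without AAV control 2 or AAV-Glrx 3) to -0.11.

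**Figure D1:**
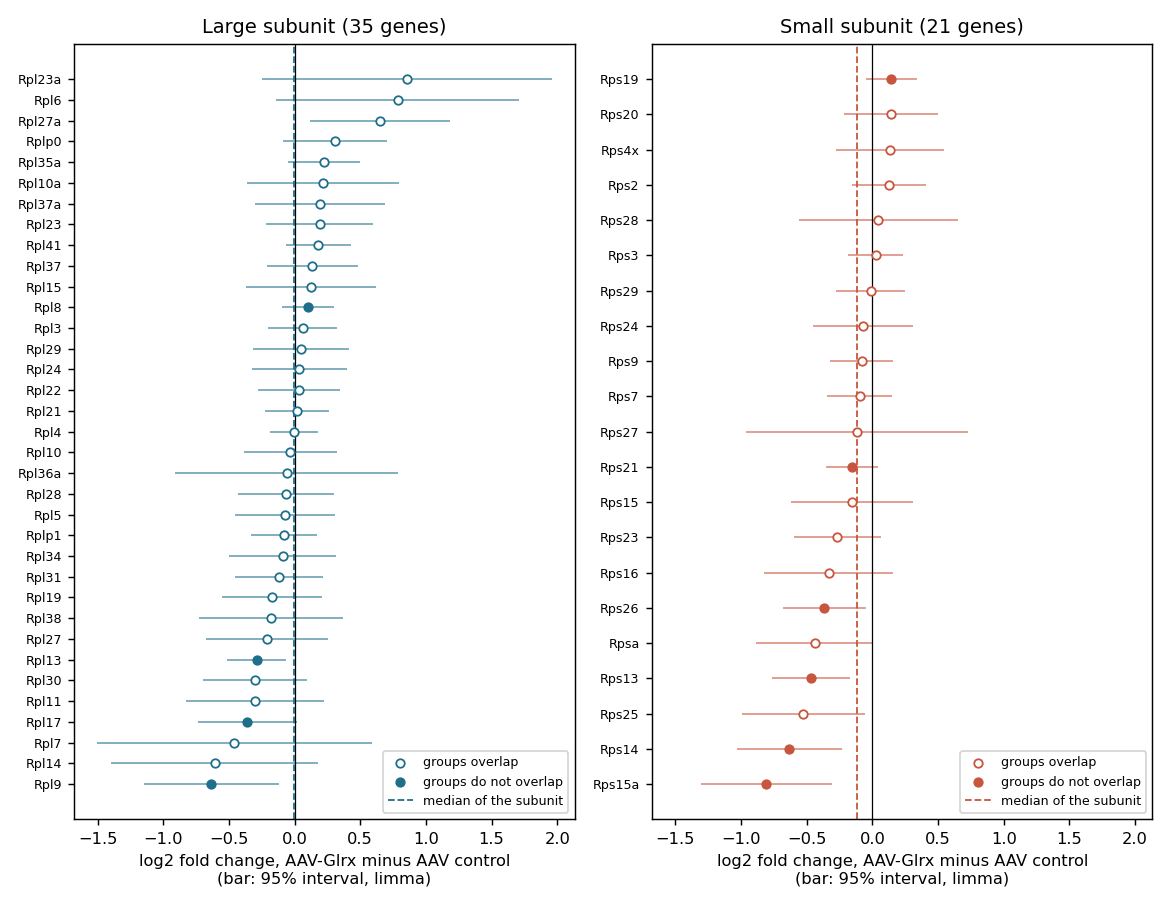
Log2 fold change (AAV-Glrx minus AAV control, x axis) of each of the 35 large-subunit genes (left) and 21 small-subunit genes (right), with the 95% interval from limma as a bar, filled points where the 3 arrays of each group do not overlap, and the median of the subunit as a dashed line. The small-subunit genes reach down to -0.81 for Rps15a and up to 0.14, and the large-subunit genes lie on both sides of 0, from -0.64 to 0.86.

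Array by array, the median over all small-subunit genes kept the groups apart, though not among its dimmest or its brightest genes. With every gene expressed as its deviation from its own mean over the arrays, the small-subunit median was 0.073, 0.099 and 0.096 in AAV control 1, 2 and 3, and -0.078, -0.111 and -0.058 in AAV-Glrx 1, 2 and 3. For the large subunit the same medians were -0.043, 0.091 and 0.003 in AAV control and 0.005, -0.037 and 0.055 in AAV-Glrx, and the groups overlapped. The mitochondrial ribosomal proteins, which build the separate ribosome inside mitochondria, had 33 of 76 genes with a lower mean, 2 lower and 1 higher at an unadjusted p under 0.05 (3.01% and 2.76% of all genes), and a median log2 fold change of 0.03. Their array medians overlapped too, from -0.062 to 0.032 in AAV control and from -0.053 to 0.057 in AAV-Glrx, and their median without AAV control 3 was -0.02.

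**Figure D2:**
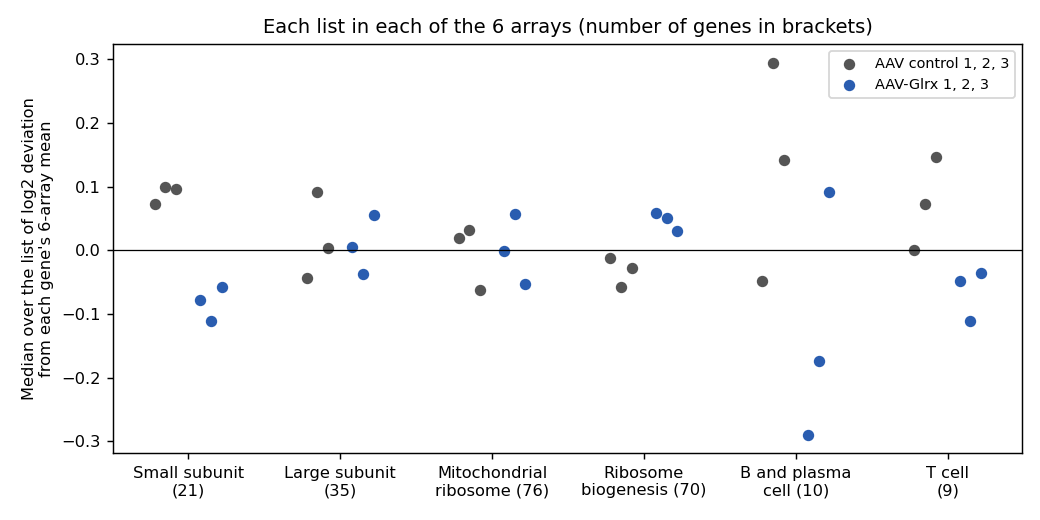
Median over each gene list of the log2 deviation from every gene's mean over the 6 arrays (y axis), with a point for each array and no error bar (AAV control 1 to 3 in grey, AAV-Glrx 1 to 3 in blue, left to right); brackets give the number of genes. In the small subunit all AAV control arrays lie above 0.07 and all AAV-Glrx arrays below -0.05, in ribosome biogenesis the order is the opposite, and the large-subunit and mitochondrial lists overlap between groups.

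Among the small-subunit genes, Rps15a had the lowest log2 fold change. Rps15a is an rRNA-binding protein of the small subunit. It read 4.56, 4.78 and 5.04 in AAV control and 4.47, 3.68 and 3.80 in AAV-Glrx, so all AAV-Glrx arrays were lower, AAV-Glrx 1 by less than the other two. The log2 fold change was -0.81 ± 0.22 (SE), or 1.75-fold lower, with a 95% interval from -1.31 to -0.31 and an adjusted p of 0.847 (limma). Over all alternatives it ran from -1.05 to -0.66.

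Rps14 sits on the platform of the small subunit, where the mRNA leaves, and loss of a copy of its human homolog is tied to a myelodysplastic syndrome. It read 4.22, 4.36 and 4.47 in AAV control and 4.07, 3.37 and 3.71 in AAV-Glrx, with no overlap and AAV-Glrx 2 lowest. The log2 fold change was -0.63 ± 0.17 (SE; 1.55-fold lower, 95% interval -1.03 to -0.23, adjusted p 0.847, limma). Rps13, at the face that joins the large subunit, read 4.40, 4.65 and 4.87 in AAV control and 4.22, 4.09 and 4.20 in AAV-Glrx. Its groups were separate as well, at -0.47 ± 0.13 (SE; 1.38-fold lower, 95% interval -0.76 to -0.17, adjusted p 0.847, limma).

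Rps25 is needed for initiation at some viral internal ribosome entry sites. It read 4.17, 4.40 and 4.60 in AAV control and 4.0, 4.17 and 3.41 in AAV-Glrx, and the groups met at 4.17. The log2 fold change was -0.53 ± 0.20 (SE; 95% interval -0.99 to -0.06, adjusted p 0.847, limma). Rpsa, which doubles as a laminin receptor, missed the unadjusted level. It read 4.13, 4.26 and 4.17 in AAV control and 3.81, 3.30 and 4.13 in AAV-Glrx, a log2 fold change of -0.44 ± 0.19 (SE; adjusted p 0.858, limma) that became -0.21 without AAV-Glrx 2. The value of Rps25 was -0.30 without AAV-Glrx 3, and its unadjusted p was above 0.05 without AAV control 2, AAV control 3 or AAV-Glrx 3 and with the replicate number as a block. Rps13, Rps14 and Rps15a stayed under 0.05 whichever array was left out.

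**Figure D3:**
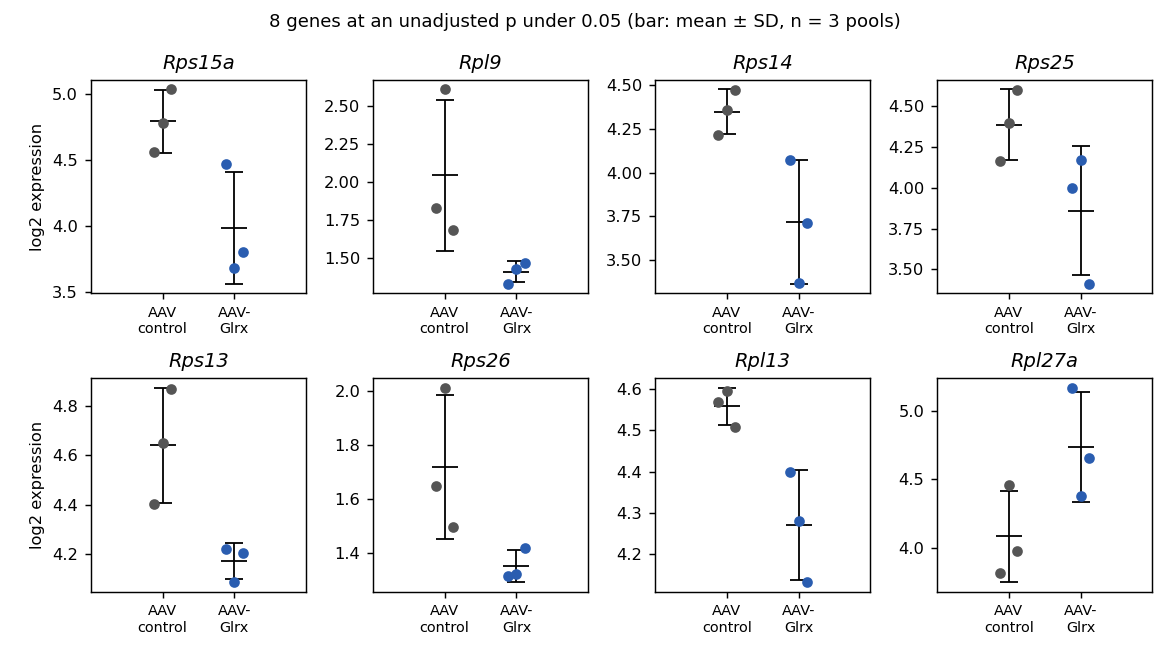
Log2 expression (y axis, a scale of its own for each gene and not from 0) in the 3 AAV control (grey) and 3 AAV-Glrx (blue) pools for the 8 ribosomal protein genes with an unadjusted p under 0.05, with the mean and SD as bars. Rps15a, Rps14, Rps13, Rps26, Rpl9 and Rpl13 have no overlap between groups, Rps25 overlaps at 4.17, and Rpl27a is the gene with higher values in AAV-Glrx.

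Rps26 contacts the mRNA just upstream of the start codon, and its human homolog is mutated in Diamond-Blackfan anemia. This gene was the dimmest of the small subunit, with a mean level of 1.54. It read 1.65, 2.01 and 1.5 in AAV control and 1.32, 1.32 and 1.42 in AAV-Glrx, with no overlap, a log2 fold change of -0.37 ± 0.14 (SE) and an adjusted p of 0.847 (limma). The log2 fold change was -0.22 without AAV control 2, and the unadjusted p was above 0.05 without that array, AAV-Glrx 1 or AAV-Glrx 2. All its values lie far below the median of all genes, 3.929, where probe signal can be close to background.

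The brightest small-subunit genes differed little. Rps9, which binds rRNA early in assembly, had the highest level and read 7.92, 8.02 and 7.79 in AAV control and 7.88, 7.69 and 7.90 in AAV-Glrx, a log2 fold change of -0.08 (95% interval -0.32 to 0.16). Rps21 lies next to Rpsa on the ribosome. It read 6.72, 6.64 and 6.79 in AAV control and 6.59, 6.51 and 6.58 in AAV-Glrx, which did not overlap, at -0.15 ± 0.09 (SE; adjusted p 0.868, limma). Rps19, whose human homolog is the gene most often mutated in Diamond-Blackfan anemia, was the small-subunit gene that stood apart in the other direction. It read 5.54, 5.62 and 5.47 in AAV control and 5.67, 5.69 and 5.70 in AAV-Glrx, at 0.14 ± 0.08 (SE; adjusted p 0.872, limma).

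The small-subunit genes were also grouped by place, in lists that leave out several of them, Rps13, Rps15a and Rps25 included. On the platform and at the mRNA exit 4 genes were measured (Rpsa, Rps14, Rps26 and Rps28), with a median of -0.40 and Rps28 at 0.05. The 3 measured genes listed for the decoding site and the tRNAs had lower means, Rps15 at -0.16, Rps16 at -0.33 and Rps23 at -0.27, and none reached an unadjusted p of 0.05. The 4 measured genes listed for the mRNA entry and the head (Rps2 at 0.13, Rps3 at 0.02, Rps20 at 0.14 and Rps29 at -0.01) had a median of 0.08. Rps6, the target of the S6 kinases, was not analysed here.

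In the large subunit the extremes went both ways. Rpl13, whose human homolog is mutated in a skeletal dysplasia, read 4.57, 4.60 and 4.51 in AAV control and 4.40, 4.28 and 4.13 in AAV-Glrx, with no overlap and a log2 fold change of -0.29 ± 0.10 (SE; adjusted p 0.847, limma), and its unadjusted p was above 0.05 without AAV control 2 or AAV-Glrx 3. Rpl9, near the site where elongation factors bind, read 1.83, 2.61 and 1.69 against 1.33, 1.43 and 1.47, at -0.64 ± 0.22 (SE; adjusted p 0.847, limma). The groups of Rpl9 did not overlap either, but AAV control 2 was far above the other arrays and the values were among the dimmest. Without AAV control 2 its log2 fold change was -0.35, and without AAV-Glrx 1 its unadjusted p was above 0.05.

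Rpl27a was the only ribosomal protein gene that was higher in AAV-Glrx at an unadjusted p under 0.05. It read 3.82, 4.46 and 3.97 in AAV control and 5.17, 4.38 and 4.65 in AAV-Glrx, at 0.65 ± 0.23 (SE; 1.57-fold higher, 95% interval 0.12 to 1.18, adjusted p 0.847, limma), and AAV-Glrx 2 lay below AAV control 2. Its unadjusted p was above 0.05 without AAV control 1, AAV control 3 or AAV-Glrx 1, and its value without AAV-Glrx 1 was 0.43. Rpl6 read 2.11, 2.65 and 2.12 in AAV control and 3.98, 3.06 and 2.19 in AAV-Glrx. Its log2 fold change of 0.78 ± 0.40 (SE; adjusted p 0.859, limma) was 0.33 without AAV-Glrx 1.

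Rpl23a, the docking point at the tunnel exit for the signal recognition particle, was at 0.86 ± 0.48 (SE) over all arrays and at 0.30 without AAV control 3. It read 3.56, 4.44 and 2.33 in AAV control and 4.74, 4.22 and 3.95 in AAV-Glrx, so AAV control 3 was far below the rest and the groups overlapped. Rpl17 lines the same tunnel and went the other way, with 3.46, 3.44 and 3.78 in AAV control and 2.87, 3.40 and 3.33 in AAV-Glrx. The groups of Rpl17 did not overlap, at -0.36 ± 0.16 (SE; adjusted p 0.858, limma), or -0.20 without AAV-Glrx 1. The other 2 measured genes of the tunnel exit, Rpl19 at -0.17 and Rpl31 at -0.12, had lower means.

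The stalk that recruits translation factors was measured through 2 of its 4 listed genes. Rplp1 had the highest level of all 56 genes and read 9.61, 9.71 and 9.36 in AAV control and 9.50, 9.44 and 9.50 in AAV-Glrx, at -0.08 (95% interval -0.33 to 0.17). Rplp0, the base of the stalk and a common reference gene in quantitative PCR, read 3.23, 2.60 and 2.81 against 3.30, 2.98 and 3.28. Its groups overlapped at 0.31 ± 0.17 (SE; adjusted p 0.870, limma), or 0.17 without AAV control 2, and of the other common reference genes Rpl19 was measured at -0.17, while Rps18, Rpl13a and Rpl32 were not analysed here.

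Rpl8 and Rpl4 were steadier. Rpl8, near the peptidyl transferase centre, read 7.12, 7.12 and 7.0 in AAV control and 7.18, 7.24 and 7.13 in AAV-Glrx, which did not overlap, at 0.10 ± 0.09 (SE; adjusted p 0.905, limma). Rpl4, which reaches into the exit tunnel, lay between 9.03 and 9.10 in all 6 arrays, with a log2 fold change of -0.01 (95% interval -0.19 to 0.18). Rpl3 (0.06), Rpl10 (-0.03) and Rpl10a (0.22) were listed with them, with a median of 0.06 over the 5 genes. Rpl10a was not steady, with a residual SD of 0.405 against a median of 0.247 over all 56 genes. Rpl5 and Rpl11, which carry 5S rRNA into the ribosome and bind Mdm2 when free, were at -0.07 and -0.30, and in both genes the groups overlapped.

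Rpl28 had the lowest level of the large subunit and read 2.08, 1.45 and 1.73 in AAV control and 1.59, 1.75 and 1.73 in AAV-Glrx, at -0.07 ± 0.16 (SE; adjusted p 0.971, limma). In the 17 large-subunit and 4 small-subunit genes not yet given a value the groups overlapped, and their log2 fold changes ran from -0.61 for Rpl14 to 0.22 for Rpl35a. Of the 9 genes listed for Diamond-Blackfan anemia through their human homologs, 7 were measured, with a median of -0.07.

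The genes were also divided by mean level over the 6 arrays, since dim rows can rest on few probes and pseudogenes can share them. Although their mRNAs are plentiful, 26 of the 56 read below the median of all genes. In the lowest class (18 genes, levels 1.54 to 3.38) the median log2 fold change was -0.02, against -0.01 over the 9662 genes within the same bounds. In the middle class (19 genes, 3.44 to 4.41) it was -0.10 against -0.01 over 4783 genes, and in the highest class (19 genes, 4.47 to 9.52) -0.07 against 0.01 over 10911 genes. In the highest class no gene reached an unadjusted p of 0.05 and the log2 fold changes kept between -0.27 and 0.19.

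Of the 5 small-subunit genes lower at an unadjusted p under 0.05, 4 lay in the middle class and Rps26 in the lowest. In the middle class, 7 of 8 small-subunit genes (Rps7, Rps13, Rps14, Rps15a, Rps16, Rps25 and Rpsa, with Rps28 as the exception) had a lower mean, and the median was -0.45. Over all genes within the bounds of that class, 180 of 4783 (3.76%) were lower at that p (limma). The median of the 11 large-subunit genes of that class was 0.02. For these 8 genes the array medians were 0.10, 0.275 and 0.321 in AAV control and -0.018, -0.491 and -0.211 in AAV-Glrx, and AAV-Glrx 2 had the lowest value of the 6 arrays in 6 of them. The median residual SD of the 8 was 0.310, against 0.158 over all genes within the bounds of the class. In the highest class the small-subunit median was -0.08 over 8 genes. There the array medians overlapped, at 0.028, 0.036 and -0.077 in AAV control and -0.046, -0.029 and 0.077 in AAV-Glrx. In the lowest class (5 small-subunit genes) they overlapped too, at 0.094, 0.072 and -0.172 against -0.125, -0.029 and -0.115.

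**Figure D4:**
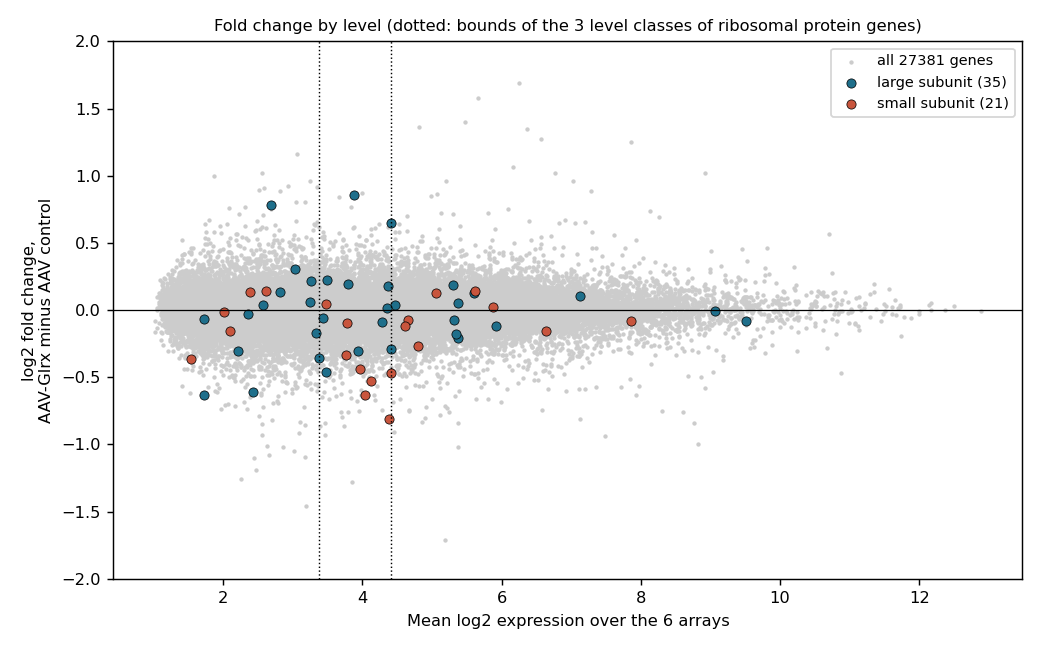
Log2 fold change (AAV-Glrx minus AAV control, y axis) against mean log2 expression over the 6 arrays (x axis) for all 27381 genes in grey and the ribosomal protein genes in color, with dotted lines at the bounds of the level classes; 2 genes lie beyond the y axis. Of the 5 small-subunit genes lower at an unadjusted p under 0.05, 4 lie between levels 3.44 and 4.41 and Rps26 lies at 1.54, and at levels above 4.47 the ribosomal protein genes stay between -0.27 and 0.19.

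Rows named as pseudogenes of ribosomal proteins were measured on the same arrays. Of 47 such rows, 31 had a measured parent gene (22 parents), and 12 of these 31 had a log2 fold change of the same sign as the parent. None of the 47 was lower and 1 was higher at an unadjusted p under 0.05 (Rps12-ps24, 0.33), 28 had a lower mean, and the median was -0.03. In 17 of the 31 the pseudogene row had the larger value, which is a comparison of array signals and not of RNA amounts. The dimmest genes are examples: Rps26 stayed at or below 2.01 in every array, while Rps26-ps1 read 7.22, 7.15 and 7.28 in AAV control and 7.49, 7.18 and 7.19 in AAV-Glrx. Likewise Rpl9 stayed at or below 2.61, and Rpl9-ps6 read 8.43, 8.33 and 8.39 against 8.30, 8.14 and 8.26.

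Those rows did not follow their genes in size. Rps26-ps1 was at 0.08, Rpl9-ps6 at -0.15 without overlap and Rpl9-ps4 at -0.03. The rows for Rps15a, at levels from 2.27 to 4.88, were at 0.16, -0.16 and -0.30, that for Rps13 at -0.14, that for Rpl17 at -0.08 and that for Rpl27a at 0.19. All 3 rows for Rps19 had a lower mean (-0.19, -0.03 and -0.16) where Rps19 had a higher one. Genes with a pseudogene row had a median of -0.08 (22 genes) and genes without one -0.07 (34 genes), and for the small subunit alone these were -0.37 (5 genes) and -0.11 (16 genes). Which probes the rows share was not examined, and their part in the values was not tested.

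**Figure D5:**
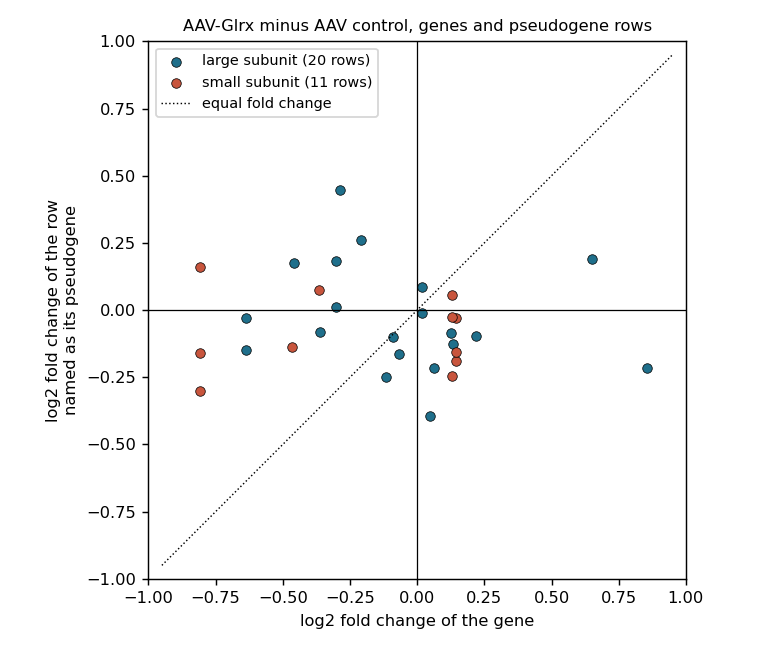
Log2 fold change (AAV-Glrx minus AAV control) of 31 rows named as pseudogenes (y axis) against that of the ribosomal protein gene each is named for (x axis), with equal change as a dotted line; a gene with several pseudogene rows appears more than once. The genes spread from -0.81 to 0.86, the pseudogene rows from -0.40 to 0.45, and 12 of 31 have the same sign.

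Ribosomal proteins and paralogs outside the name pattern, such as Rps3a1 and Fau, were measured for 9 of 13 listed genes. Of these, 2 had a lower mean and none reached an unadjusted p of 0.05, with a median of 0.05. Rpl39l, a paralog of Rpl39 with its main role in the testis, was at 0.22 and Rps4l at -0.13. Other mRNAs with a TOP start (9 of 10 listed) had a median of 0.04 with none at that p. The elongation factor genes Eef1a1 (0.23) and Eef1g (0.18) led them by p, and Eef1a1 read dim, at a mean level of 2.13.

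The list of ribosome biogenesis genes ran opposite to the small subunit, while the RNA polymerase I and III list, given below, went both ways. Of 70 ribosome biogenesis genes, all 70 measured, 53 had a higher mean in AAV-Glrx, 7 were higher at an unadjusted p under 0.05 (2.76% of all genes) and none was lower (limma). In 15 of them every AAV-Glrx array read above every AAV control array (5.51% of all genes). The median log2 fold change was 0.08, and the array medians were -0.012, -0.058 and -0.028 in AAV control and 0.059, 0.050 and 0.030 in AAV-Glrx. None passed the adjusted threshold, and without AAV control 3 or without AAV-Glrx 2, 4 were higher at that p. A lower mean was seen in 17 of the 70 (24.3%), against 50.5% of all genes. Most of the list was bright, with 67 genes above the median level. Of all 10911 genes at levels 4.47 to 9.52, 46.9% had a lower mean and 2.91% were higher at that p (limma). In 797 of these 10911, every AAV-Glrx array read above every AAV control array.

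Rrn3, the initiation factor that joins RNA polymerase I to its promoter, read 6.10, 5.89 and 6.01 in AAV control and 6.25, 6.39 and 6.32 in AAV-Glrx, at 0.32 ± 0.09 (SE; adjusted p 0.847, limma). Tsr1, a late assembly factor of the small subunit, read 5.80, 5.79 and 5.90 against 6.16, 6.09 and 6.05, at 0.27 ± 0.09 (SE; adjusted p 0.847, limma). Neither gene had overlapping groups. The other 5, named after their values were seen, were Bysl (0.33) and Riok2 (0.22) of small-subunit assembly, Nle1 (0.28) of large-subunit assembly, Utp15 (0.27) of early rRNA processing and Naf1 (0.42) of H/ACA snoRNP assembly.

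Counts for the remaining lists of translation follow, beside 3.01% of all genes lower and 2.76% higher. RNA polymerase I and III (31 of 35 listed, Rrn3 among them) had 3 genes lower, with Polr2l, a subunit common to the RNA polymerases, at -0.41, and 1 higher at an unadjusted p under 0.05. Initiation factors (23 of 29) had 1 higher, Eif4a1 at 0.58 and a level of 1.87, and Eif4e, the cap-binding protein, was at 0.22. The list for control of TOP mRNAs (15 of 16) also held the transcription factor genes Myc, Mycn and Max. It had 1 gene higher, Mycn at 0.31, and the mTORC1 component Akt1s1 was at 0.19. Host genes of snoRNAs (14 of 14) had 1 higher, Snhg15 at 0.30, and Zfas1, also a host gene, was at 0.14. Among ribosome rescue and p53 target genes (19 of 22), 1 was lower, the cell cycle inhibitor Cdkn1a at -0.59, and 1 higher, the rescue factor Pelo at 0.31.

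The arrays hold RNA of all liver cells, so fewer cells of a type and less RNA per cell cannot be told apart. Lymphocytes are rich in ribosomal protein mRNA, and their markers read lower in AAV-Glrx as well. All 10 measured B and plasma cell markers (of 11 listed) had a lower mean, against 50.5% of all genes, with a median of -0.27. Of these, 3 were lower at an unadjusted p under 0.05 (limma), against 3.01% of all genes. The mean level of the list ran from 3.99 to 4.52 in AAV control and from 3.79 to 4.29 in AAV-Glrx. Of the T cell markers, 8 of 9 measured (of 11 listed) had a lower mean, 2 at that p, with a median of -0.13 and mean levels from 3.88 to 4.05 and from 3.80 to 3.90. By array, the B cell median was lowest in AAV-Glrx 1 (-0.290) and the T cell median in AAV-Glrx 2 (-0.111), while the small-subunit median was lowest in AAV-Glrx 2. Their part in the small-subunit values was not tested. Macrophage and Kupffer cell markers (9 of 10) also had lower means in 8 of 9, none at an unadjusted p under 0.05, with a median of -0.08. The medians of endothelial (-0.05), stellate (0.01), cholangiocyte (-0.0048), neutrophil (0.09), erythroid (0.03) and hepatocyte (0.00063) markers lay nearer to or above 0. Among them, 1 of 11 hepatocyte markers (Tat at -0.47) and 1 of 10 endothelial markers were lower at an unadjusted p under 0.05 (limma).

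Upstream sequence is shown for 5 of the genes at an unadjusted p under 0.05, 4 of them lower and Rpl27a higher, so that promoters of genes with opposite values can be read side by side. For 4 promoter motifs, a short word each was searched on both strands in 300 bases (250 before the start, 50 from it), and none of the searched words contains another. An ETS word, CCGGAAG, was found in 36.4% of the 44 matched ribosomal protein genes and 9.93% of all 27025, and an SP1 word, GGGCGG, in 61.4% and 38.2%. A YY1 word, AAGATGGC, was found in 9.09% and 3.19%, and TATAAA in 11.4% and 15.7%. By subunit the ETS word was found in 38.5% of large-subunit and 33.3% of small-subunit genes and the SP1 word in 65.4% and 55.6%. Each line gives the 120 bases before the annotated start, 5′ to 3′ on the strand of the gene (RefSeq, GRCm38.p6), with these words in capitals.
Rps15a (chr7:118116148-118116267, minus strand): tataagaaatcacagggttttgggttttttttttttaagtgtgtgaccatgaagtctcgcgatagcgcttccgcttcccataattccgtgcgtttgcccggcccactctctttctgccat
Rps13 (chr7:116334191-116334310, minus strand): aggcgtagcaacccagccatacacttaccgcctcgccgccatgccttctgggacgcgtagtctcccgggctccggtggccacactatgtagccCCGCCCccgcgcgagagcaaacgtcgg
Rps25 (chr9:44407594-44407713, plus strand): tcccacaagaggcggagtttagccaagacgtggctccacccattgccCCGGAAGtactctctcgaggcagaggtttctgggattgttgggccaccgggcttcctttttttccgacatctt
Rpl13 (chr8:123102230-123102349, plus strand): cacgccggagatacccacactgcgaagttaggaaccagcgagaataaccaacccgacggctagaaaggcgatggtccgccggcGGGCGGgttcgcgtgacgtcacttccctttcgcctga
Rpl27a (chr7:109519075-109519194, plus strand): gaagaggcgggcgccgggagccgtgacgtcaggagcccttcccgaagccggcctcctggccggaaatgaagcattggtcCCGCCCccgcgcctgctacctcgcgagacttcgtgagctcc
Rpl13, Rpl27a and Rps13 hold the SP1 word in this window and Rps25 the ETS word. The same window of Rps26 and Rpl9, both with lower values, is not printed above and held none of the words. The windows printed are shorter than those searched: over 300 bases Rps15a held the YY1 and the SP1 word. Over those bases Rps26 held the ETS word and Rpl27a also the ETS word. The SP1 word thus stood before genes with lower values, Rps13 and Rpl13, and before the gene with higher values, Rpl27a.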

How the data were processed

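Whole-liver RNA of 6 pools was measured on Affymetrix Mouse Gene 2.0 ST arrays. The authors deposited a log2 expression value for each Entrez gene, made with the Robust Multiarray Average and Brainarray gene definitions. According to the submitters' processing notes the tools were affy 1.61.0 under R 3.6.0. The genome build behind these definitions was not found in the sources used here. Quantile normalization within that method makes a shift of most genes invisible, and dim values understate fold changes. Detection calls were not used here, and 3 arrays per group limit the precision.

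The log2 values were fitted without filter or covariates with lmFit and eBayes in limma 3.58.1 (R 4.3.3), AAV-Glrx minus AAV control, with Benjamini-Hochberg adjustment across 27381 genes and a threshold of 0.1. Groups came from the labels. With 3 arrays against 3, an exact permutation test cannot go below 0.1, so none was run. The steps were tested on simulated data. The members and the gene lists were chosen with earlier results of these data known. Values in every array are given for the 5 genes of each subunit with the smallest p, the highest and lowest level of each, Rplp0, Rplp1, Rpsa and every gene whose groups do not overlap, with Rpl23a and Rpl4 added after their values were seen; of each pathway list the 2 genes with the smallest p are named. Alternatives were an intensity trend, a robust prior, centring, another quantile normalization, a filter on dim genes, weights for each array, a block for the replicate number and leaving out each array. No other column of per-sample values was present.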

Additional observations from a re-analysis of the deposited data

How the results depend on the processing

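No ribosomal protein gene passed under any of 13 alternatives or at an adjusted p under 0.05 or 0.25, and 227 of 228 values of the 18 genes chosen by the rule for full values kept their direction and their side of the threshold. The exception was Rpl28, which ran from -0.22 to 0.10 with an array left out (0.10 without AAV control 1). The intensity trend, robust prior, filter on dim genes and replicate block leave each log2 fold change unchanged by construction. Under these a gene could change only its side of the threshold and not its direction. The count of ribosomal protein genes higher at an unadjusted p under 0.05 was 3 with the replicate block and 0 to 3 when arrays were left out, and that of lower ones was 5 to 9 over all alternatives. The small-subunit median was -0.15 with array weights and -0.19 to -0.11 with an array left out. Of large-subunit genes, 9 had a lower mean among those above the median level, where 17 were left. Ribosome biogenesis genes higher at that p numbered 4 to 5, and their median was 0.054 to 0.091, with an array left out. Counts at an unadjusted p, biogenesis genes, mitochondrial ribosomal proteins, Glrx and Rpl23a (0.30 to 1.36 with an array left out) were added to these alternatives after seeing the data. The cause of these differences was not tested. Samples with the same replicate number did not deviate together (correlations of -0.036, -0.171 and 0.021, against -0.14 to 0.178 for different numbers). These few correlations gave no sign of pairing by number and could not settle whether there was any. With the replicate block, 8 ribosomal protein genes were lower at an unadjusted p under 0.05, 4 of them in the small subunit. The block leaves the small-subunit median at -0.12 by construction, since each group holds every number. Signal limits the dim genes, since 26 of 56 read below the median of all genes.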
